A study of Mus musculus with 12 samples.

Results

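Rn7sk, Rpph1, Rmrp and Terc are 4 non-coding RNAs that act as folded scaffolds or catalysts, and they were examined here as a set of listed genes, matched by Ensembl identifier to mouse symbols. They are 4 of the 48526 genes counted in each library, and all 4 were found. The study asked which RNAs are recovered with antibodies against double-stranded RNA from intestinal epithelium that lacks the histone acetyltransferases Kat2a and Kat2b. Whole epithelial cells came from the proximal small intestine of 3-month-old female mice, 2 double knockout (DKO) animals and 2 control animals. DKO was induced with tamoxifen at 100 mg/kg, injected on 4 days, and the cells were taken 2 days after the last injection. Controls received the ethanol and corn oil vehicle without tamoxifen, so the effect of tamoxifen and that of the deletion cannot be told apart. The alleles of the control animals and the recombinase driver are not given in the sources used here. Each animal gave 3 libraries: total RNA before pulldown (input), RNA bound by antibody J2 and RNA bound by antibody K1. That makes 12 libraries in 6 groups of 2, and the animal is the replicate. The p-values below rest on 2 animals per group and on a spread that all groups of a fit share. A p-value for control against its input therefore also carries the spread of the DKO libraries. The main fits do not pair pulldown and input by animal, and a block for the animal was run as an alternative.

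Rn7sk, Rpph1 and Rmrp are products of RNA polymerase III, and Terc is made in vertebrates by RNA polymerase II. Rn7sk (7SK) holds the elongation kinase P-TEFb in an inactive complex with Hexim proteins. Rpph1 is the RNA subunit of RNase P, the ribozyme that trims the 5′ ends of precursor tRNAs, and Rmrp is its relative in RNase MRP, which acts on precursor ribosomal RNA. Terc carries the template that telomerase copies onto chromosome ends, an activity known from dividing cells such as those of intestinal crypts. J2 and K1 are monoclonal antibodies that bind the double helix of RNA rather than a particular sequence, and J2 is known to need a long uninterrupted duplex.

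The sequences of the 4 RNAs are shown because the pulldowns select for helices. Capitals mark both arms of the longest uninterrupted helix in the minimum free energy structure predicted by RNAfold for the whole RNA. Each sequence runs 5′ to 3′ and is from the annotated transcript of the GENCODE M21 annotation on GRCm38. Rmrp is shown whole, bases 1 to 271, and the other 3 from base 1 to base 200, which hold both arms.
Rn7sk, chr9:78175303-78175633, minus strand: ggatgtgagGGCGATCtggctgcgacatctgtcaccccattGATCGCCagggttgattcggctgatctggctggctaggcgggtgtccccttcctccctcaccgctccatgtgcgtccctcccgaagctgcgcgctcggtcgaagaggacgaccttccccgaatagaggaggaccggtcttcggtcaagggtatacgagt
Rpph1, chr14:50807449-50807767, minus strand: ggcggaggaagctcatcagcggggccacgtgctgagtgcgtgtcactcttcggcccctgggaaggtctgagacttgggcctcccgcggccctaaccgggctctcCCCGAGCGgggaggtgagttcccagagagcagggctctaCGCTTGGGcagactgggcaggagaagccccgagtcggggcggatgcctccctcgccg
Rmrp, chr4:43492788-43493058, minus strand: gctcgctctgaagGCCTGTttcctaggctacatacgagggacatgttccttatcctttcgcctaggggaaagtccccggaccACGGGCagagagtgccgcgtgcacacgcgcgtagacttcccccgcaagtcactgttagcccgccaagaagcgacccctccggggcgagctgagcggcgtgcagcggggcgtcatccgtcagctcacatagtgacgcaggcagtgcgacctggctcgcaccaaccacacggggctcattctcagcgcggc
Terc, chr3:96414437-96414859, minus strand: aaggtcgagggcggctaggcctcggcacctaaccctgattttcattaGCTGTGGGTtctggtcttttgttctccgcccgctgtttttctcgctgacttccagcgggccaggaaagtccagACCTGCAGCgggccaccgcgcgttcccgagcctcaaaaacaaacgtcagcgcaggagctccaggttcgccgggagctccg

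Each of the 4 genes is annotated as 1 non-coding exon, Rn7sk (ENSMUSG00000065037.1) and Terc (ENSMUSG00000064796.1) as misc_RNA and Rpph1 (ENSMUSG00000092837.1) and Rmrp (ENSMUSG00000088088.1) as ribozymes. The longest predicted helix had 7 base pairs in Rn7sk (bases 10 to 16 with 42 to 48), 8 in Rpph1 (105 to 112 with 144 to 151), 6 in Rmrp (14 to 19 with 83 to 88) and 9 in Terc (48 to 56 with 121 to 129). Against 336 other tested genes whose transcript has 250 to 450 bases, these helices were not long: the median was 9 base pairs, and 322, 273, 332 and 189 of the 336 had a helix at least as long as that of Rn7sk, Rpph1, Rmrp and Terc. Free energy per 100 bases was -47.8 kcal/mol in Terc and -47.0 kcal/mol in Rpph1, with 0 of the 336 other genes as low, -39.2 kcal/mol in Rmrp, with 15 as low, and -33.8 kcal/mol in Rn7sk, with 70 as low, against a median of -29.6 kcal/mol. GC content was 67.1% in both Terc and Rpph1, 64.2% in Rmrp and 58.0% in Rn7sk, against a median of 50.3%.

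A pair of known sequence elements was searched on the RNA strand only. The telomeric template letters CTAACCCT stand once in Terc, at bases 29 to 36, and in 0.298% of the 336 other transcripts. The tetramer GATC, which in 7SK lies in the hairpin that Hexim proteins bind, occurs 3 times in Rn7sk, at bases 13 to 16, 42 to 45 and 64 to 67. It also occurs in 75% of the 336 transcripts, and the copies at 13 to 16 and 42 to 45 lie in the facing arms marked in capitals above. A match of letters describes the sequence and is not a measured site.

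The 4 genes differ in how cleanly reads can be assigned to them. Bases 1 to 241 of Rn7sk, 72.8% of its length, are at least 97% identical to the annotated genes Gm24447, Gm24146 and Gm26315. Bases 36 to 268 of Rpph1 (73.0%) overlap an exon of Ccnb1ip1 on the same strand. Bases 36 to 159 of Rmrp (45.8%) overlap an exon of Ccdc107 on the opposite strand. The labels name the tables as counts without strand, so reads of Rmrp and of the antisense Ccdc107 exon cannot be told apart there. The treatment of ambiguous reads is not given in the sources used here. Counts of Rn7sk, Rpph1 and Rmrp are therefore uncertain to that extent, and no such copy or overlap was found for Terc.

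Counts assigned to genes were 10307281 to 11474107 per input library and 13308021 to 16139531 in the control pulldowns, but 2691285 to 5826361 in DKO J2 and 2220291 to 5559033 in DKO K1. Reads with several alignments made up 5.54% to 8.05% of the listed reads in input and control pulldowns, and 15.8% to 46.7% in DKO pulldowns. Kat2b counts were 343 to 359 in control input and 114 to 118 in DKO input, and Kat2a counts were 222 to 228 and 84 to 148. All 12 epithelial markers were detected in every group. Levels are given in CPM (the count scaled to library size, TMM factors included). The epithelial markers summed to 8596 to 8813 CPM in control input and 7640 to 9135 CPM in DKO input. In J2 they summed to 6034 to 6459 CPM in control against 4762 to 14219 CPM in DKO, and in K1 to 8945 to 10764 against 7983 to 16353 CPM. The summed level of 16 leukocyte markers, 14 or 15 of them detected, was 141 CPM in control input and 90.1 to 106 CPM in DKO input. It was 73.3 to 78.3 CPM in control J2 and 88.1 to 128 CPM in DKO J2, and 59.6 to 67.7 CPM against 80.0 to 88.5 CPM in K1. Stromal and muscle markers (12 listed) summed to 11.8 to 17.0 CPM in control input, 15.4 to 22.8 CPM in DKO input, 17.5 to 37.7 CPM in control J2, 39.5 to 217 CPM in DKO J2, 16.8 to 57.8 CPM in control K1, then 112 to 241 CPM in DKO K1. The 6 neural and glial markers summed to 3.74 to 4.21 CPM in control input against 24.9 to 25.3 CPM in DKO input, 2.95 to 3.23 CPM against 10.5 to 34.1 CPM in J2, and 2.83 to 2.96 CPM against 19.9 to 29.9 CPM in K1. The 8 endothelial markers summed to 12.6 to 14.4 CPM in control input against 17.8 to 23.0 CPM in DKO input, 6.99 to 10.3 CPM against 23.4 to 23.9 CPM in J2, and 5.79 to 11.01 CPM against 12.2 to 19.7 CPM in K1. What these differences contribute to the results below was not tested.

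Rpph1 stood at similar levels in all inputs and was higher in every DKO pulldown than in any other library. In input its counts were 43767 and 50687 in control against 50313 and 52263 in DKO. Scaled to library size these are 3478 and 3648 CPM in control against 4190 and 3837 CPM in DKO. Input levels were thus close together in all 4 animals, and the difference between genotypes did not pass the test (log2 fold change 0.21, SE 0.18, adjusted p = 0.393, edgeR). In J2 Rpph1 stood at 4145 and 5526 CPM in control against 50044 and 37738 CPM in DKO. In K1 it stood at 9295 and 15135 CPM in control against 88276 and 47357 CPM in DKO. The lowest DKO pulldown, at 37738 CPM, lay above the highest control pulldown, at 15135 CPM. The share of all genes with such a separation of levels was not computed. By raw count Rpph1 ranked 13 to 17 among all genes in input, 11 to 15 in control J2, 1 or 2 in control K1 and 2 or 3 in the DKO pulldowns. It took 6.69% of all gene counts in the highest DKO K1 library and 0.425% to 0.466% in input.

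Terc, at far lower levels, was called between genotypes in input, 1 of the 3 RNAs tested there, where 35.9% of 15088 genes were called (18.8% higher, 17.1% lower). Its input counts were 30 and 51 in control against 76 and 84 in DKO, which is 2.38 and 3.67 CPM against 6.33 and 6.17 CPM. The DKO level was 2.11-fold higher (log2 fold change 1.08, SE 0.27, adjusted p = 0.0194). Without control animal 1 the adjusted p was 0.144, in a range of 0.000792 to 0.505 over the alternatives. The summed neural and glial and endothelial markers given above were also higher in both DKO inputs than in either control input, and their part in the Terc difference was not tested. In bulk tissue, more RNA per cell and more cells of a type that holds the RNA cannot be told apart. In J2 Terc stood at 2.12 and 2.59 CPM in control against 31.8 and 68.1 CPM in DKO. In K1 it stood at 4.00 and 10.8 CPM in control against 42.2 and 51.1 CPM in DKO. Again every DKO pulldown lay above every control library, a separation whose share over all genes was not computed.

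Rmrp was counted in few reads. Its counts were 7 and 6 in control input against 3 and 3 in DKO input, at or near the floor of 3 counts per library used here. J2 held 3 and 5 counts in control against 16 and 42 in DKO, and K1 held 4 and 30 in control against 46 and 18 in DKO. In CPM these are 0.556 and 0.432 in control input, 0.250 and 0.220 in DKO input, 0.206 and 0.404 in control J2, 4.07 and 12.9 in DKO J2, 0.246 and 2.23 in control K1, then 10.9 and 8.14 in DKO K1. The DKO pulldowns were highest, and control animal 2 stood apart in K1. Rmrp passed the filter on low counts in the pulldown fits only through its DKO pulldown libraries, so it had to differ there. Its fitted values are given below as a description, without a test and outside the counts of RNAs called, and it was not tested between genotypes in input. Counts of the overlapping gene Ccdc107, before scaling for the lower depth of the DKO pulldowns, were lower in DKO, with 243 and 270 in control input against 94 and 147 in DKO input, 98 and 97 in control J2 against 26 and 48 in DKO J2, and 191 and 217 in control K1 against 39 and 26 in DKO K1. Scaled, Ccdc107 fell in DKO input (-1.01, adjusted p = 0.00628) and was not called between genotypes in J2 (0.64) or K1 (-0.23).

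Rn7sk had the most counts of the 4 in input, and its DKO animals lay far apart in the pulldowns. Its input counts were 150263 and 180829 in control against 117008 and 116996 in DKO, or 11942 and 13016 CPM against 9744 and 8589 CPM. DKO input was lower in both animals, but the difference did not pass the test (log2 fold change -0.41, SE 0.22, adjusted p = 0.192). In J2 it stood at 2785 and 3265 CPM in control against 4248 and 36358 CPM in DKO. In K1 it stood at 1776 and 2045 CPM in control against 3405 and 16185 CPM in DKO. The control animals were close together, and DKO animal 2 was far above DKO animal 1 in both pulldowns, 8.56-fold in J2 and 4.75-fold in K1. Between input libraries of a genotype that ratio was at most 1.13.

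**Figure D1:**
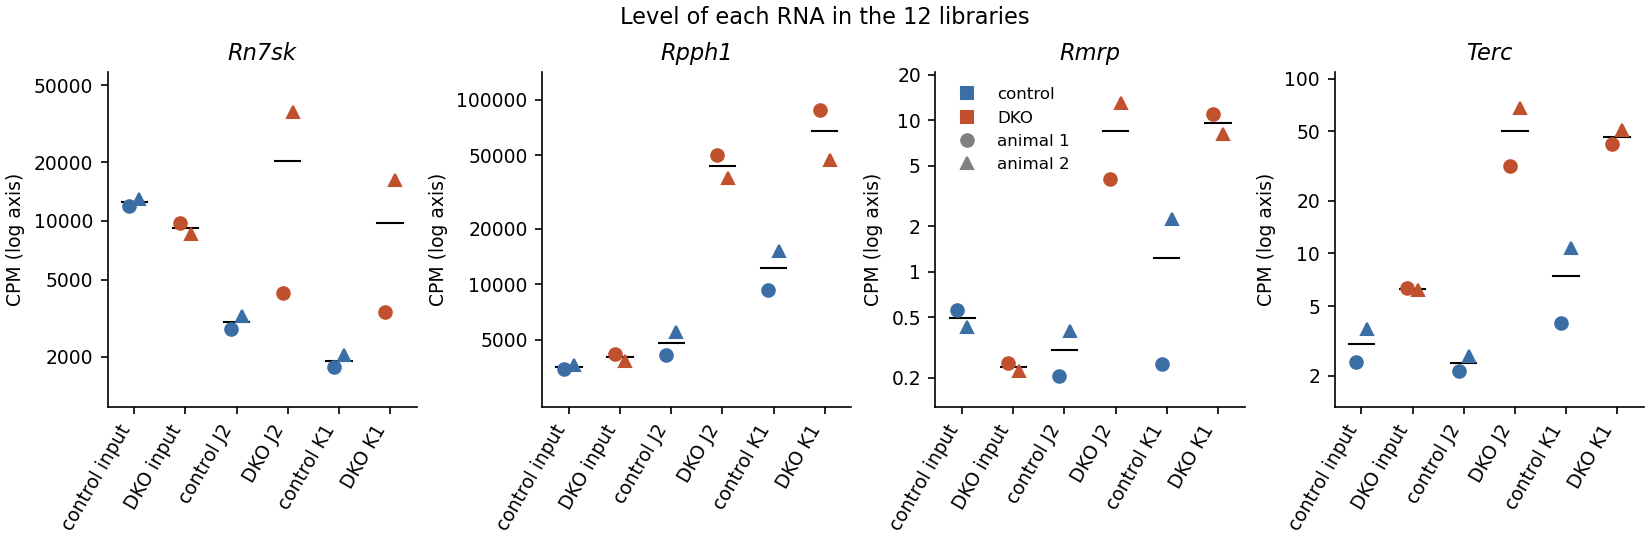
Level of Rn7sk, Rpph1, Rmrp and Terc in CPM (log axis, a separate scale for each RNA) in the 6 groups; points are libraries, circles animal 1 and triangles animal 2, blue control and red DKO, and the horizontal lines are group means. Rpph1 and Terc are highest in all 4 DKO pulldown libraries, as is Rmrp, which had to be high there. Rn7sk is above its input only in the pulldowns of DKO animal 2.

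Per kilobase of transcript, mean control input levels were 37701 ± 2295 CPM per kb for Rn7sk, 11170 ± 377 for Rpph1, 7.16 ± 2.15 for Terc and 1.82 ± 0.325 for Rmrp (SD, n = 2). No neighbours in that order overlapped. In DKO K1 the order of the leading pair was turned, with 212591 ± 90704 CPM per kb for Rpph1 and 29593 ± 27302 for Rn7sk (SD, n = 2), and these libraries did not overlap. Terc at 110 ± 14.8 and Rmrp at 35.2 ± 7.24 CPM per kb kept their places in DKO K1.

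The first question of the design is which RNAs a pulldown enriches over input in control epithelium. With J2, none of the 4 was called at an adjusted p under 0.05, where 29.8% of the 15923 genes tested were called in either direction (15.2% higher, 14.6% lower). At an unadjusted p under 0.05 the number was also 0, where 6770 of all genes passed, and DESeq2 called 1, Rn7sk. Rn7sk was at -2.04 on the log2 scale (SE 1.10, adjusted p = 0.196), Rpph1 at 0.45, Rmrp at -0.69 and Terc at -0.36, beside a median of -0.07 over all genes. The 2 control animals gave close figures for Rn7sk, -2.10 and -2.00 for J2 minus input in the same animal. In the fits without DKO animal 1 or 2, where only the control pair gives a spread for the pulldown, Rn7sk was called lower, at -2.17 (adjusted p = 8.36e-06) and -2.03 (adjusted p = 7.83e-06). Over all alternatives its adjusted p ran from 7.83e-06 to 0.789. Rpph1 was called higher at 0.45 in the fit without DKO animal 2 (adjusted p = 0.0275, range over alternatives 0.0275 to 0.982).

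With K1 in control animals 3 of the 4 were called, where 39.8% of the 15908 genes tested were, 19.7% higher and 20.1% lower. Rpph1 rose 3.23-fold (log2 1.69, SE 0.54, adjusted p = 0.0297) and Terc 2.27-fold (log2 1.18, SE 0.42, adjusted p = 0.0453), and Rn7sk fell 6.91-fold (log2 -2.79, SE 0.66, adjusted p = 0.00776). Rmrp was at 1.17 (SE 0.80, adjusted p = 0.274), beside a median of 0.00 over all genes. All 3 calls were lost when either control animal was left out, with adjusted p of 0.256 and 0.252 for Rn7sk, 0.474 and 0.628 for Rpph1 and 0.104 and 0.46 for Terc without control animal 1 and 2. The lone control animal is then assumed to vary like the DKO pair. The Terc call was lost in 9 of 11 alternatives, those without DKO animal 1 (0.0652) or 2 (0.0595) among them, and held only with no filter on low counts (0.00115) and with the animal as a block (0.0041). The sign of Rmrp turned without control animal 2, to -1.19. Over all alternatives the adjusted p ran from 3.16e-16 to 0.256 for Rn7sk, 4.51e-07 to 0.628 for Rpph1 and 0.00115 to 0.46 for Terc.

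In DKO epithelium J2 enriched Rpph1 and Terc over input, 2 of the 3 RNAs besides Rmrp, where 25.7% of 15923 genes were called, 12.2% higher and 13.4% lower. Rpph1 rose 11.1-fold (log2 3.48, SE 0.95, adjusted p = 0.0314). Terc rose 8.13-fold (log2 3.02, SE 0.41, adjusted p = 0.0038). Rmrp, with both DKO inputs at the floor of 3 counts, had a mean CPM in J2 36.2-fold that of input. That direction was fixed by its entry into the fit. Among all genes tested Rpph1 ranked 176 from the highest and Terc 273. Rn7sk was at 1.18 (SE 1.08, adjusted p = 0.436), beside a median of 0.10 over all genes. With the animal as a block, Rpph1 was no longer called (log2 3.47, adjusted p = 0.0823), and without control animal 1 or 2 its adjusted p was 0.333 or 0.311, in a range of 1.3e-32 to 0.333. Terc was not called when the libraries were thinned to the shallowest one (adjusted p = 0.151), in a range of 4.24e-11 to 0.151. For Rn7sk the sign turned with the animal left out: -1.17 without DKO animal 2 and 1.97 without DKO animal 1. In these fits the lone DKO animal is assumed to vary like the control pair.

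K1 in DKO also enriched Rpph1 and Terc, where 35.6% of 15908 genes were called, 14.6% higher and 21% lower. Rpph1 rose 15.9-fold (log2 3.99, SE 0.59, adjusted p = 0.00111). Terc rose 7.02-fold (log2 2.81, SE 0.41, adjusted p = 0.000968). The mean CPM of Rmrp in K1 was 40.5-fold that of input, again a direction fixed by its entry into the fit. The calls of Rpph1 and Terc held without each of the 4 animals in turn and with the animal as a block. Thinned to the shallowest library, Terc was not called (adjusted p = 0.0943), in a range of 3.74e-18 to 0.0943. Rn7sk was at 0.03 (SE 0.62, adjusted p = 0.978), beside a median of -0.14 over all genes. It was at -1.60 without DKO animal 2 and at 0.76 without DKO animal 1. There the lone DKO animal is again assumed to vary like the control pair. Without control animal 1 it was at -0.01, with no call.

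**Figure D2:**
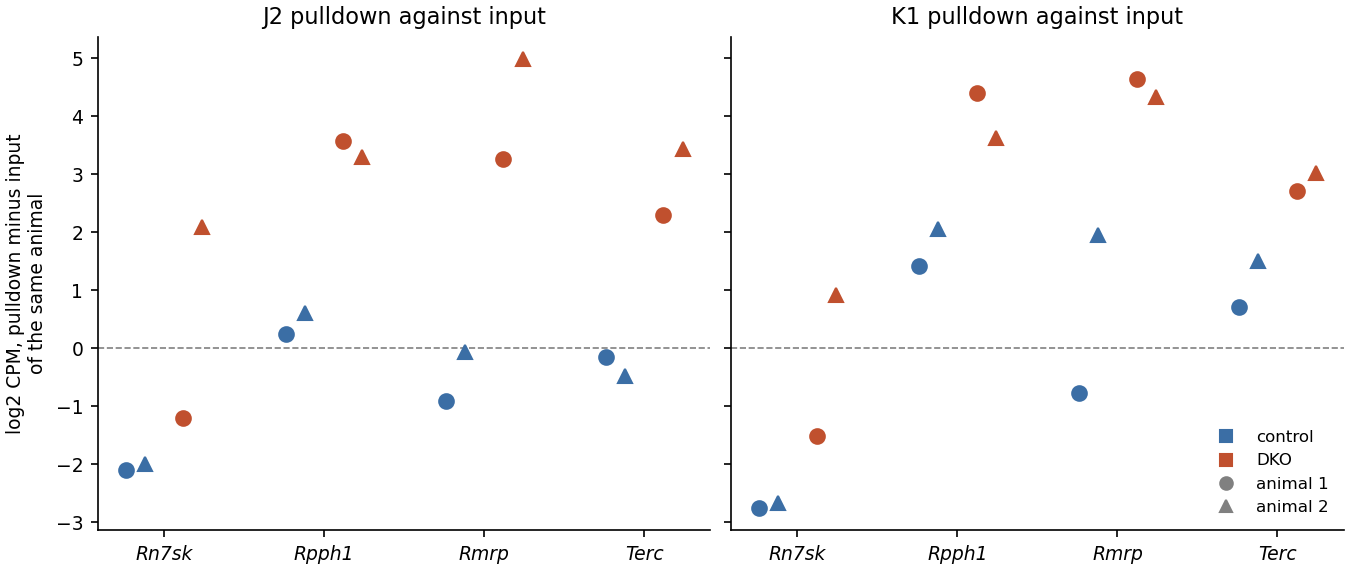
Difference of log2 CPM between each pulldown and the input of the same animal, J2 on the left and K1 on the right; each point is 1 animal, blue control and red DKO, circles animal 1 and triangles animal 2. For Rn7sk, Rpph1 and Terc the 2 DKO points lie above the 2 control points with both antibodies, as they do for Rmrp, which had to be high there. The same held for 26.9% of all genes tested with J2 and 20.4% with K1. Rn7sk is above 0 in DKO animal 2 alone.

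The next comparison asks whether enrichment itself differed between genotypes. Taken animal by animal, J2 minus input was 0.25 and 0.60 for Rpph1 in control against 3.58 and 3.30 in DKO. For Terc it was -0.15 and -0.48 in control against 2.30 and 3.43 in DKO, for Rmrp -0.91 and -0.07 against 3.26 and 4.98, and for Rn7sk -2.10 and -2.00 against -1.20 and 2.08. K1 minus input was 1.42 and 2.05 against 4.40 and 3.63 for Rpph1, 0.70 and 1.51 against 2.70 and 3.01 for Terc, -0.77 and 1.95 against 4.64 and 4.32 for Rmrp, and -2.75 and -2.67 against -1.52 and 0.91 for Rn7sk. Both DKO animals were above both control animals with each antibody for Rn7sk, Rpph1 and Terc, and for Rmrp, which had to be high there. The same held for 26.9% of all genes tested with J2 and 20.4% with K1.

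Tested as an interaction, the J2 difference was called for Terc, 1 of the 3 RNAs besides Rmrp, where 2.71% of genes were called, 0.772% higher and 1.94% lower. It was 3.39 for Terc (SE 0.59, adjusted p = 0.0379). Rn7sk at 3.22 (SE 1.54, adjusted p = 0.228) and Rpph1 at 3.03 (SE 1.25, adjusted p = 0.174) were close to Terc in size but not called. The fitted value of Rmrp was 5.82 (SE 1.10), with DKO inputs at the floor. With the animal as a block no gene was called, and Terc had an adjusted p of 0.0712. Without control animal 1 or 2 none was called, with 0.738 and 0.676 for Terc. Without DKO animal 1 or 2 the value of Rn7sk was 4.14 or 0.86. The lone DKO animal is then assumed to vary like the control pair. Over all alternatives the adjusted p of Terc ran from 4.53e-06 to 0.738.

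The K1 difference was called for none of the 4, where 5.47% of genes were called, 1.37% higher and 4.10% lower. It was 4.05 for Rmrp, 2.82 for Rn7sk (0.0938), 2.30 for Rpph1 (0.103) and 1.63 for Terc (0.125), beside a median of -0.20 over all genes. Unadjusted p was under 0.05 for all 4, as it was for 3736 of the 15908 genes tested. DESeq2 called 3 of the 4. Both counts include Rmrp, which had to differ. With the animal as a block Terc was called (1.68, adjusted p = 0.0103). Rn7sk and Rpph1 were at 3.56 and 1.79 when DKO animal 1 was left out, and at 1.18 and 2.61 without DKO animal 2. The lone DKO animal is then assumed to vary like the control pair. The adjusted p over alternatives ran from 8.8e-09 to 0.721 for Rn7sk, from 8.35e-06 to 0.819 for Rpph1 and from 0.00534 to 0.815 for Terc.

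Direct comparison of DKO with control, which is not corrected for input, called 1 of the 3 members tested in input, Terc as given above. Rn7sk in input was at -0.49 without DKO animal 1, where the lone DKO animal is assumed to vary like the control pair. In J2, Terc was called, 1 of the 3 RNAs besides Rmrp, where 12.2% of 13181 genes were (6.02% higher, 6.16% lower), at 4.49 (SE 0.58, adjusted p = 0.0287). In K1 it was called again, where 27.1% of 12888 genes were (13.2% higher, 13.9% lower), at 2.87 (SE 0.48, adjusted p = 0.00726). Rn7sk (2.88 in J2, 2.62 in K1) and Rpph1 (3.23 and 2.65) were not called, with adjusted p of 0.29, 0.0563, 0.284 and 0.0675. The fitted values of Rmrp, which entered both fits through DKO libraries, were 4.85 in J2 (SE 0.89) and 3.17 in K1 (SE 0.83).

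Terc kept both pulldown calls without each animal in turn. Fits without DKO animal 1 or DKO animal 2 hold a lone DKO library and take their spread from the control pair alone. In them Rn7sk was at 3.67 or 0.55 in J2 and at 3.33 or 0.99 in K1. The comparisons of DKO with control share libraries with the comparisons against input.

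**Figure D3:**
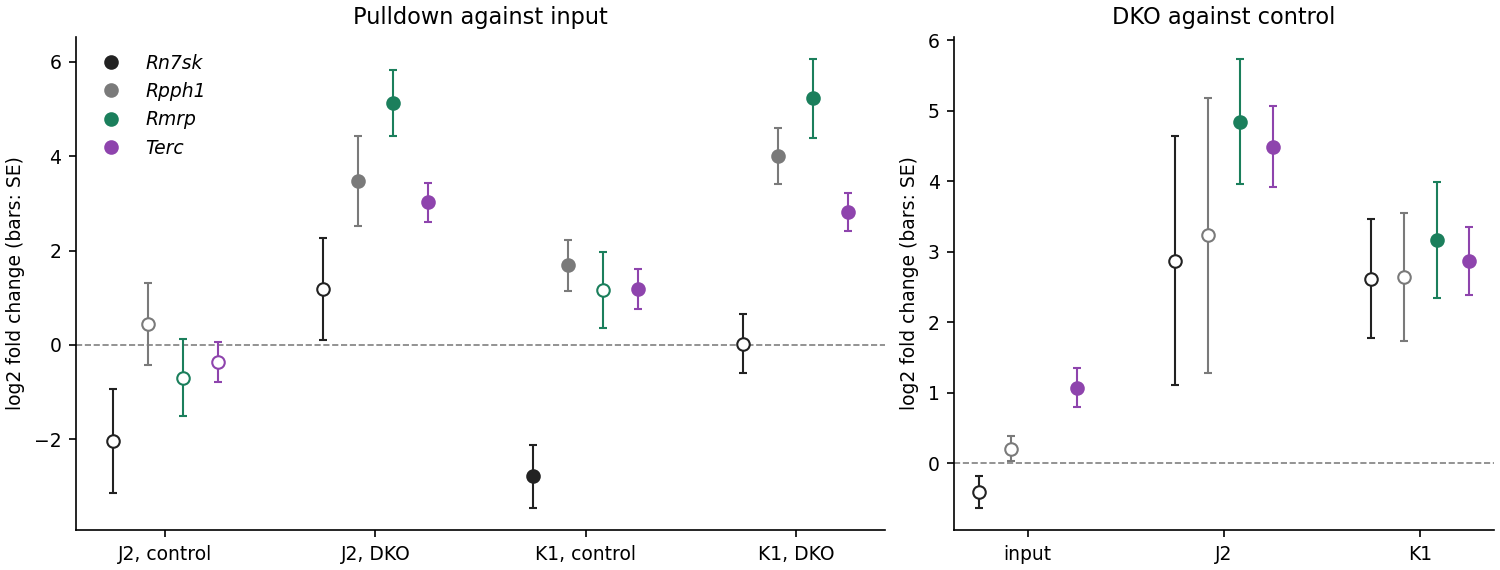
Log2 fold changes fitted by edgeR for the 4 RNAs, pulldown against input on the left and DKO against control on the right; bars are standard errors and filled points have an adjusted p under 0.05. Rpph1 and Terc are filled in both DKO pulldowns, as is Rmrp, which had to be high there, while Rn7sk is filled only in control K1, where it is negative, and Rmrp has no point in input because it was not tested there.

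Length and base composition of the 4 RNAs were looked at as well. All 4 have 500 bases or fewer, but Rn7sk, at 58.0% GC, lies below the 60% limit used for GC content. Genes of 500 bases or fewer, a limit chosen after the data were seen, had a negative median in both pulldowns. Their median log2 change was -1.27 in DKO J2 (623 tested, 15.7% called higher) and -1.28 in DKO K1 (627 tested, 17.4% called higher). In control the medians were -1.23 in J2 and -1.65 in K1. Genes whose longest transcript had a GC content of 60% or more, also chosen after the data were seen, had a median of 0.74 in DKO J2 and 0.70 in DKO K1, with 27.7% and 37.7% called higher. In control they were at -0.01 in J2 and 0.47 in K1, and genes under 45% GC were at -0.51 and -0.75 in DKO J2 and K1. The part of GC content in the values of Rpph1, Rmrp and Terc was not tested.

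Counts of the annotated copies of 7SK were set beside those of Rn7sk. Because the copies are near-identical to it, their reads may come from Rn7sk itself and give no separate view of it. Gm24447, Gm24146 and Gm26315 together had 2468 and 3134 counts in control input against 2114 and 2082 in DKO input, 1.64% to 1.81% of the Rn7sk count. In J2 they had 5077 and 5311 counts in control against 2260 and 16439 in DKO, 12.5% to 13.9% of Rn7sk. In K1 they had 2054 and 2372 counts in control against 1917 and 4079 in DKO, 7.12% to 13.4% of Rn7sk. In both pulldowns the copies, like Rn7sk, were higher in DKO animal 2 than in DKO animal 1, and their ratio to Rn7sk was higher in every pulldown library than in every input library.

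Genes at the Rpph1 and Rn7sk loci gave few counts. Ccnb1ip1, whose exon overlaps Rpph1 and which encodes a regulator of meiotic crossing over, had 11, 14 and 3 counts in the input, J2 and K1 libraries of DKO animal 2 and 0 in the other 9 libraries. Parp2, which encodes a DNA repair enzyme and begins 73 bases from Rpph1 on the other strand, had 201 and 174 counts in control input, 161 and 169 in DKO input, 148 and 144 in control J2, 41 and 142 in DKO J2, 258 and 217 in control K1, then 45 and 48 in DKO K1. Scaled, Parp2 was not called between genotypes in input (log2 -0.10, adjusted p = 0.692), J2 (1.42, adjusted p = 0.224) or K1 (0.19, adjusted p = 0.769). C920006O11Rik, 280 bases from Rn7sk, had at most 16 counts in any library.

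Few messages for the proteins that bind these RNAs were called between genotypes in input. Of 8 messages of the 7SK particle and P-TEFb, Cdk9, the kinase of P-TEFb, rose (0.40, adjusted p = 0.0415), as did Ccnt1, a cyclin subunit (0.35, adjusted p = 0.0445), and Mepce, the enzyme that caps 7SK, fell (-0.53, adjusted p = 0.0156). The median of the 8 was -0.24, beside 0.00 over all genes. Of 11 messages for RNase P and MRP proteins, Rpp21 fell (-0.59, adjusted p = 0.0258) and the other 10 did not pass the test, with a list median of -0.19. Of 11 telomerase messages, which include Tert and the dyskerin gene Dkc1, 0 passed, with a median of -0.24.

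Few genes of the polymerase that makes 3 of the 4 RNAs were called either. Of 18 subunits of RNA polymerase III, Crcp rose (0.82, adjusted p = 0.0106), Polr3gl fell (-0.73, adjusted p = 0.0428) and Polr3b fell (-0.52, adjusted p = 0.0359), with a list median of 0.04. Of 19 transcription factors of the polymerase, Zfp143 rose (0.61, adjusted p = 0.0169) and Maf1, a repressor of the polymerase, fell (-0.54, adjusted p = 0.0136), with a median of 0.02. In the 5 lists together 9 of 67 messages were called, 4 higher and 5 lower, or 13.4%, beside the 35.9% called over all genes.

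**Figure D4:**
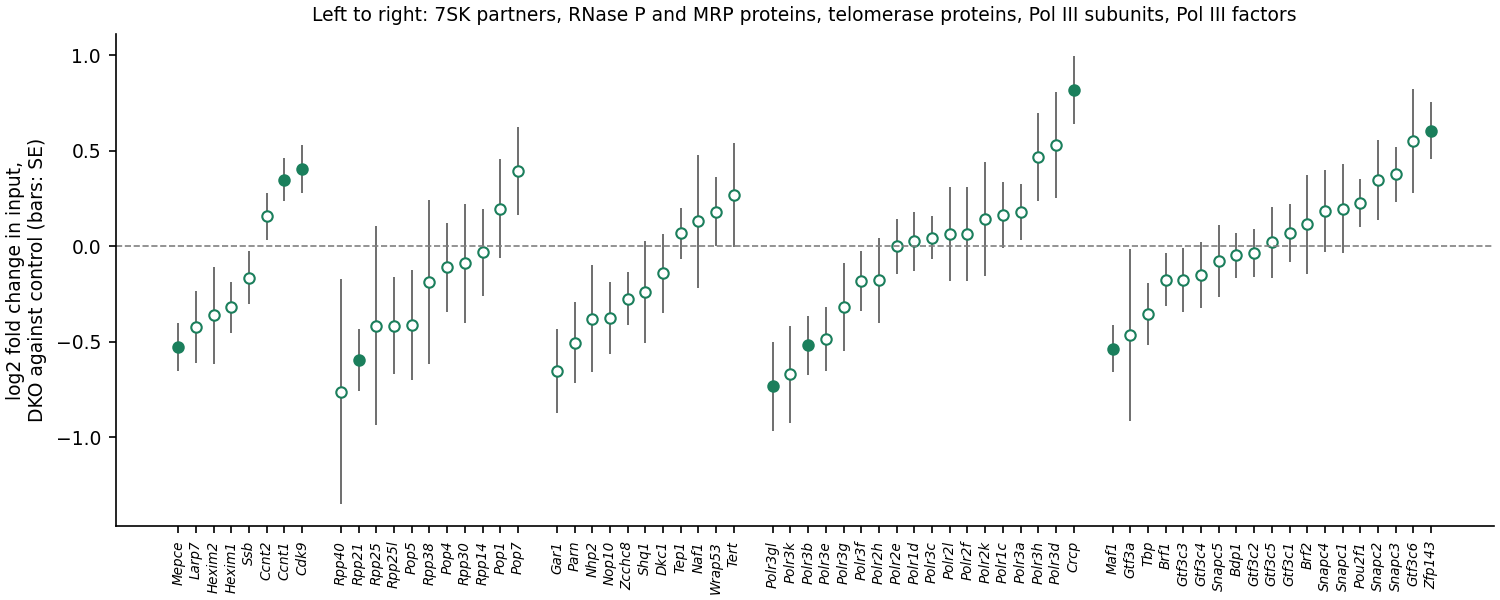
Log2 fold change of each tested partner message in input, DKO against control, in the 5 lists named above the plot, sorted within each list; bars are standard errors, and filled points have an adjusted p under 0.05. The 9 filled points are Mepce, Ccnt1, Cdk9, Rpp21, Polr3gl, Polr3b, Crcp, Zfp143 and Maf1.

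In the pulldowns the calls among these 67 messages are given beside those over all genes. In DKO K1, 19 rose and 9 fell over input (41.8% called, beside 35.6% of all genes), and in DKO J2, 11 rose and 5 fell (23.9%, beside 25.7%). In control K1, 14 rose and 8 fell (32.8%, beside 39.8%), and in control J2, 7 rose and 9 fell (23.9%, beside 29.8%). Wrap53, which carries telomerase to Cajal bodies, rose over input in all 4 comparisons, by 2.37 in control J2 (adjusted p = 0.00396), 1.72 in DKO J2 (0.014), 1.56 in control K1 (0.000629) and 1.43 in DKO K1 (0.00146). Naf1, an assembly factor of H/ACA particles, rose in DKO J2 (2.61, adjusted p = 0.00708), DKO K1 (2.18, adjusted p = 0.00152) and control K1 (1.48, adjusted p = 0.00529). Cdk9 rose in DKO J2 (1.04, adjusted p = 0.0368), DKO K1 (1.35, adjusted p = 0.00132) and control K1 (0.83, adjusted p = 0.00889). In the interaction test of J2 enrichment 4 of the 67 were called (5.97%, beside 2.71% of all genes). Among them Gar1, an H/ACA protein of telomerase, was higher in DKO (2.65, adjusted p = 0.0489), as was Polr3gl (2.65, adjusted p = 0.0411). None of the 11 RNase P and MRP messages was called in either interaction test. With 2.71% of all genes called for J2 and 5.47% for K1, a list of that size need hold no call.

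Pou2f1 (Oct-1), an activator of 7SK and other polymerase III genes of that type, was, of the messages called in these lists, the one with the largest fall of enrichment in DKO. Its mean level was 27.5 CPM in control input and 31.4 CPM in DKO input, 224 and 46.9 CPM in J2, and 162 and 39.2 CPM in K1. Its enrichment was lower in DKO by both interaction tests, -2.42 for J2 (adjusted p = 0.029) and -2.25 for K1 (adjusted p = 0.0133). Gtf3c2, a subunit of TFIIIC, was also lower in both, at -2.18 (adjusted p = 0.0342) and -1.79 (adjusted p = 0.0212).

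Other small structured RNAs were listed for comparison, and 26 of 28 were in the files. Only 3 to 5 passed the filter on low counts in any fit, and those that passed through the DKO pulldowns had to be high there. Rn7s1, Rn7s2 and Rn7s6, 3 near-identical genes of the signal recognition particle RNA whose counts may be shared, were measured in all libraries. Rn7s2 had 449 and 596 counts in control input, 588 and 589 in DKO input, 140 and 143 in control J2, 388 and 997 in DKO J2, 362 and 555 in control K1, then 1962 and 1786 in DKO K1. The mean level of Rn7s2 was 39.3 and 46.1 CPM in input, 10.6 and 203 CPM in J2 and 31.8 and 637 CPM in K1, control first. Its K1 enrichment was higher in DKO by 4.10 (SE 0.50, adjusted p = 0.00659), a call that none of the 4 RNAs had, and its J2 enrichment by 4.06 (SE 0.68, adjusted p = 0.0353). In control J2 all 3 copies fell, with Rn7s2 at -1.89 (adjusted p = 0.0221). Vaultrc5, a vault RNA, had 2 to 16 counts in input. In J2 it had 3 and 11 counts in control against 16 and 22 in DKO, and in K1 4 and 4 against 30 and 24. Y RNAs Rny1 and Rny3 had 1 count each over all libraries.

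Across the 12 libraries the log2 CPM of Rpph1, Rmrp and Terc followed each other, with Pearson r of 0.933 for Rpph1 with Rmrp, 0.918 for Rpph1 with Terc and 0.939 for Rmrp with Terc. Rn7sk followed them less, with r of 0.038, 0.310 and 0.362. Among 9378 genes (9379 for Rmrp) the patterns most like that of Rpph1 were those of Zfp622 (r = 0.994), Dcun1d5 (0.981) and Pomgnt1 (0.975). The nearest to Terc were Ccdc9 (0.980), Rhbdf1 (0.978) and Arhgap45 (0.977), to Rmrp Ercc2 (0.968), Dus3l (0.955) and Tnk1 (0.954), and to Rn7sk Ankrd16 (0.974), Cspp1 (0.972) and Ccdc174 (0.968). These coefficients describe 12 libraries from 4 animals that share preparation, depth and scaling, and carry no test.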

How the data were processed

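Libraries of input, J2 and K1 RNA from 4 mice were analysed. The authors deposited a table of raw read counts per gene for each library, counted without regard to strand per the labels. Per the submitters' processing notes, STAR 2.7.10b, SAMtools 1.17, UMI-tools 1.1.4, HTSeq 2.0.2, DESeq2 1.40.1, edgeR 3.42.2, deepTools 3.5.2 and FastQC were used, with the builds mm10 and GRCm38.p4. Their settings and the annotation release are not given in the sources used here. Rows that name no gene (no feature, ambiguous, several alignments) were left out. They held 37.2% to 38.2% of reads in input, 18.7% to 24.8% in control pulldowns and 32.0% to 61.2% in DKO pulldowns. Of 48526 gene identifiers, 48144 matched GENCODE M21 without the version.

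Genes were tested with the quasi-likelihood test of edgeR 4.0.16 (R 4.3.3) after TMM scaling and filterByExpr with a minimum count of 10, with Benjamini-Hochberg adjustment over all genes tested and a threshold of 0.05. Pulldown and input of both genotypes shared 1 fit per antibody, with no block for the animal. Its interaction term is the difference of enrichment. DKO against control was fitted within each kind of library. The script was tested on simulated counts with the same spread for all genes and groups and no pairing by animal. Such counts check the code and cannot show how the test behaves at the spread of these data. CPM used TMM factors over 12 libraries, and likeness used log2 CPM with a prior count of 2. Structures came from RNAfold 2.7.2 and copies from blastn 2.17.0+ (at least 100 aligned bases and 97% identity).

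The labels tie pulldowns to inputs of the same animals. Deviations from group means correlated at 0.208 to 0.296 within animals, and at 0.026, -0.088 and -0.097 for animals that share only a number. Replicate counts differed beyond sampling noise in all groups (chi-square per degree of freedom at least 9.78). Intervals were not computed, since the replicate spread is larger than counting error.

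The 4 RNAs are always named. From each list at most 4 called genes with the largest change and a mean of at least 50 counts are named for a comparison, and for likeness the 3 best-correlated named genes. Overlapping or neighbouring genes are named with counts. Members and lists were chosen with earlier results of these data known. Alternatives were DESeq2 1.42.0, no TMM, no filter, the replicate block, scaling without mitochondrial genes, all 12 libraries in 1 fit, thinning to the shallowest library, and leaving out each animal.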

Additional observations from a re-analysis of the deposited data

Results flagged for a closer look

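For Terc the J2 enrichment over input differed between DKO and control by the test of the difference itself (interaction term, edgeR), by 3.39 on the log2 scale (adjusted p = 0.0379). Both DKO animals lay above both control animals, as for 26.9% of all genes tested, on 30 to 221 counts per library. With the animal as a block the call was lost (adjusted p = 0.0712). The same term came to 5.82 for Rmrp, on 3 to 42 counts per library. Rmrp entered that fit only through its DKO J2 libraries, with 16 and 42 counts, and both DKO inputs were at the floor of 3 counts, so it had to differ and its value supports nothing.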

How the results depend on the processing

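Of 370 values of single RNAs under the alternatives, over 35 results, 277 kept their direction and side of the threshold, 50 were called that had not been, 35 lost their call and 8 changed sign. The 8 were Terc in control J2 when thinned (0.26), Rmrp in control K1 when thinned (-2.06) and without control animal 2 (-1.19, against 2.25 without control animal 1), and Rn7sk in DKO J2 without DKO animal 2 (-1.17, against 1.97 without DKO animal 1) and in DKO K1 without TMM (-0.16), with the replicate block (-0.38), without control animal 1 (-0.01) and without DKO animal 2 (-1.60, against 0.76 without DKO animal 1). The cause was not tested. The directions of Rpph1 held under each alternative, as did those of Rmrp and Terc in the DKO pulldowns. Depth limits Rmrp most: thinned libraries gave no value for it in the J2 fits. The fit of all 12 libraries was not planned for DKO against control.

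With 2 animals per group the number of RNAs called depended on the animals. The numbers of RNAs called in this and the next paragraphs include Rmrp, which had to differ in the DKO pulldowns and is no support there. When each animal was left out in turn, the RNAs called against input ranged from 0 to 2 in control J2, 2 to 4 in DKO J2, 0 to 2 in control K1 and 3 to 4 in DKO K1. For the difference of enrichment they ranged from 0 to 4 with J2 and 0 to 2 with K1, and for DKO against control from 0 to 2 in input, 1 to 4 in J2 and 1 to 4 in K1. Genes called over the whole table ranged from 0 to 10139 in control J2 (4747 with all animals), 337 to 7791 in DKO J2 (4087), 281 to 9189 in control K1 (6324) and 3005 to 5970 in DKO K1 (5659). They ranged from 0 to 6990 for the J2 difference (432), 0 to 3802 for the K1 difference (870), and for DKO against control from 3615 to 6226 in input (5421), 177 to 8635 in J2 (1606) and 1149 to 5819 in K1 (3487). Each lowest value of genes called came without a control animal, whose partner is then assumed to vary like the DKO pair. Without a DKO animal its partner is likewise assumed to vary like the control pair.

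With the replicate block, pairing by animal, the J2 difference was called for 0 of the 4 RNAs and 0 genes (4074 at an unadjusted p under 0.05), and the K1 difference for 2 RNAs and 1912 genes. The block also ended the call of Rpph1 in DKO J2, and changed no other call of the 4 RNAs. For DKO against control, where only a number is shared, the block gave 2262 genes in J2 against 1606.

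DESeq2 called 1 RNA in control J2, 4 for the J2 difference (2018 genes), 3 for the K1 difference, 4 for DKO against control in J2 (2884 genes) and 4 in K1. Without the filter 1 was called in control J2, 4 for the J2 difference (2453 genes), 4 for the K1 difference (1763 genes), 2 for DKO against control in input and 4 in K1, with 4273 genes called in J2. Without TMM 1 was called for the J2 difference (669 genes), 1 for the K1 difference, 2 for DKO against control in input and 1 in J2. In the fit of all 12 libraries 0 were called in control K1, and 898 and 59 genes for the J2 and K1 differences. Thinned to the shallowest library, 1 was called in DKO J2 (512 genes), 0 for the J2 difference (0 genes), 0 for DKO against control in input (1295 genes), 1 in J2 (474 genes) and 4 in K1 (1283 genes). Thinning left 1087 genes called in control J2, 1124 in control K1, 1308 in DKO K1 and 36 for the K1 difference.

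Scaling moved the balance of calls. Without TMM the median over all genes shifted to -0.44 in control J2, -0.26 in DKO J2, -0.23 in control K1 and -0.48 in DKO K1. The share of calls that were higher went from 51.1% to 34.6%, 47.6% to 21.1%, 49.6% to 35.9% and 41.1% to 22.3% in these comparisons, from 28.5% to 10.5% and 25.1% to 13.2% for the J2 and K1 differences, and from 52.4% to 42.1%, 49.4% to 32.7% and 48.6% to 27.4% for DKO against control in input, J2 and K1. Scaling without mitochondrial genes moved it from 49.6% to 38.6% in control K1.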

Other observations

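The small RNA genes Rprl3 and Rprl2 were counted almost only in DKO animal 2, and Rnu1b2 mostly in the J2 library of that animal. Rprl3, a gene related to Rpph1, had 46 counts in the J2 and 48 in the K1 library of that animal, 10 in its input, and 1 or 0 in each of the other 9 libraries. Rprl2 had 11, 8 and 3 counts in the same 3 libraries and at most 1 elsewhere. Rnu1b2, a U1 small nuclear RNA gene, had 34 counts in J2 of DKO animal 2, 5 and 4 in the DKO inputs, 3 and 2 in DKO K1 and 0 in the other 7 libraries. These genes were chosen after their values were seen. DKO animal 2 also held the high Rn7sk pulldown values and the counts of Ccnb1ip1, while Rnu1b2 stood out in its J2 library alone.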
